A study of Mus musculus with 4 samples.

Results

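The genes described here are the Wnt ligands, the receptors and secretion factors they need, the R-spondins that tune those receptors, and the secreted or membrane-bound antagonists of the pathway. They were chosen by symbol and not by level: every Wnt, Frizzled (Fzd), Sfrp, Dkk and R-spondin (Rspo) gene of the table, together with 19 named partners, came to 60 genes of the 48425 listed. The choice was made with earlier results of these data known. The series profiled RNA from mesothelial cells, the flat epithelium-like layer that lines the peritoneal cavity, in 4 mice. All 4 were C57BL/6 animals aged 10 weeks with no genetic change or treatment, and each gave 1 library. Cells were loosened with trypsin and EDTA (0.25%, 5 ml, 37 °C, 20 min) after a 10 ml rinse, and were sorted as CD45-, podoplanin+ and Gpm6a+. The gate selects on surface antigens, so the libraries describe the cells that carried them and came off under trypsin, from no stated part of the cavity wall. No group other than this one exists in the series. The tests below therefore ask whether a level lay above a fixed threshold.

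Wnt proteins are lipid-modified secreted signals. The acyltransferase Porcn adds the lipid and the carrier Wls brings the ligand to the cell surface, where it meets a Frizzled receptor together with Lrp5 or Lrp6. In the canonical branch the Axin-based destruction complex is then blocked and beta-catenin enters the nucleus to work with Tcf factors, whereas ligands such as Wnt5a act mainly through Ror and Ryk receptors and the planar polarity proteins. The ubiquitin ligases Znrf3 and Rnf43 remove Frizzled from the membrane, and R-spondins bound to Lgr4, Lgr5 or Lgr6 hold those ligases in check. Sfrp proteins and Wif1 bind the ligand itself, Dkk1 and its relatives bind Lrp5 and Lrp6 together with Kremen, and Notum strips the lipid. In the mouse embryo the lining of the body cavity over the gonad is known to express Rspo1.

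The libraries held 4569578, 4371817, 4554370 and 4090224 estimated counts in animals 1 to 4. Levels are CPM, the estimated count of a gene per 1000000 counts of its library. CPM keep the length of the transcript, so genes are ordered against each other as CPM per kb of the longest annotated transcript. Percentiles, medians over sets of genes and the largest CPM of a list are not corrected for length. A gene with no count could lie as high as 0.171 CPM over the group, the level that 3 counts in all 4 libraries together would give, which covers counting error only. Lists of cell type markers were also chosen with earlier results of these data known. All 12 mesothelial markers passed the test described next, with summed levels of 14354, 15540, 14425 and 13671 CPM in animals 1 to 4. The fibroblast list passed in 11 of 12 genes, with sums of 4519, 7193, 6493 and 3889 CPM in the same animals. Pdgfra, a receptor used as a fibroblast marker, had 19.5, 36.5, 21.8 and 24.1 CPM. Levels in this list ran from a mean of 1.55 CPM for Pi16, which did not pass, to 2741 CPM for Col3a1. Pdgfrb and Dpt had means of 4.53 and 7.97 CPM. Of the other lists, 6 of 10 smooth muscle and pericyte genes, 3 of 10 blood endothelial genes, 1 of 12 leukocyte genes and 1 of 10 intestinal genes passed, and the endothelial genes Cdh5, Emcn and Cldn5 were at 0. The summed level ranged over animals from 129.7 to 236 CPM for smooth muscle and pericyte genes, with Notch3 and Lmod1 at 0. The largest means in that list were Acta2 at 96.0, Kcnj8 at 26.8 and Des at 24.7 CPM. For blood endothelial genes the range was 388 to 425 CPM, most of it from Esam, with a mean of 359 CPM, and Kdr, with 49.2 CPM. For leukocyte genes it was 12.9 to 32.3 CPM, with Itgam at 0 and Cd68 the largest at a mean of 12.5 CPM. For intestinal genes it was 15.2 to 37.9 CPM, with Lgals4 the largest at a mean of 20.0 CPM. In sorted bulk RNA, a smaller share of cells that carry a transcript and less of it per cell cannot be told apart.

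Of the 60 genes, 43 had counts and 33 passed a test for a level over 1 CPM (edgeR's quasi-likelihood F test, one-sided, Benjamini-Hochberg over the whole table, adjusted p under 0.05). The 33 are 55% of the members. Over all genes 24.7% passed, and over protein-coding genes, which all members are, 50.9% passed. The members' share is near that of protein-coding genes. With limma and voom weights 32 members passed, beside 23.7% of all genes, and with DESeq2's Wald test 31, beside 24.1% of all genes. All further calls are by the edgeR test unless another is named. The median of the members' mean levels was 3.99 CPM, against 2.88 CPM for protein-coding genes and 0 CPM for all genes of the table. By role, all 5 genes of ligand secretion and of the Ror and Ryk receptors passed, as did both Axin genes and 10 of 12 Frizzled and Lrp genes, 7 of 19 ligands, 4 of 9 genes of the R-spondin axis and 5 of 13 antagonists. No p is given for these differences in share.

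**Figure D1:**
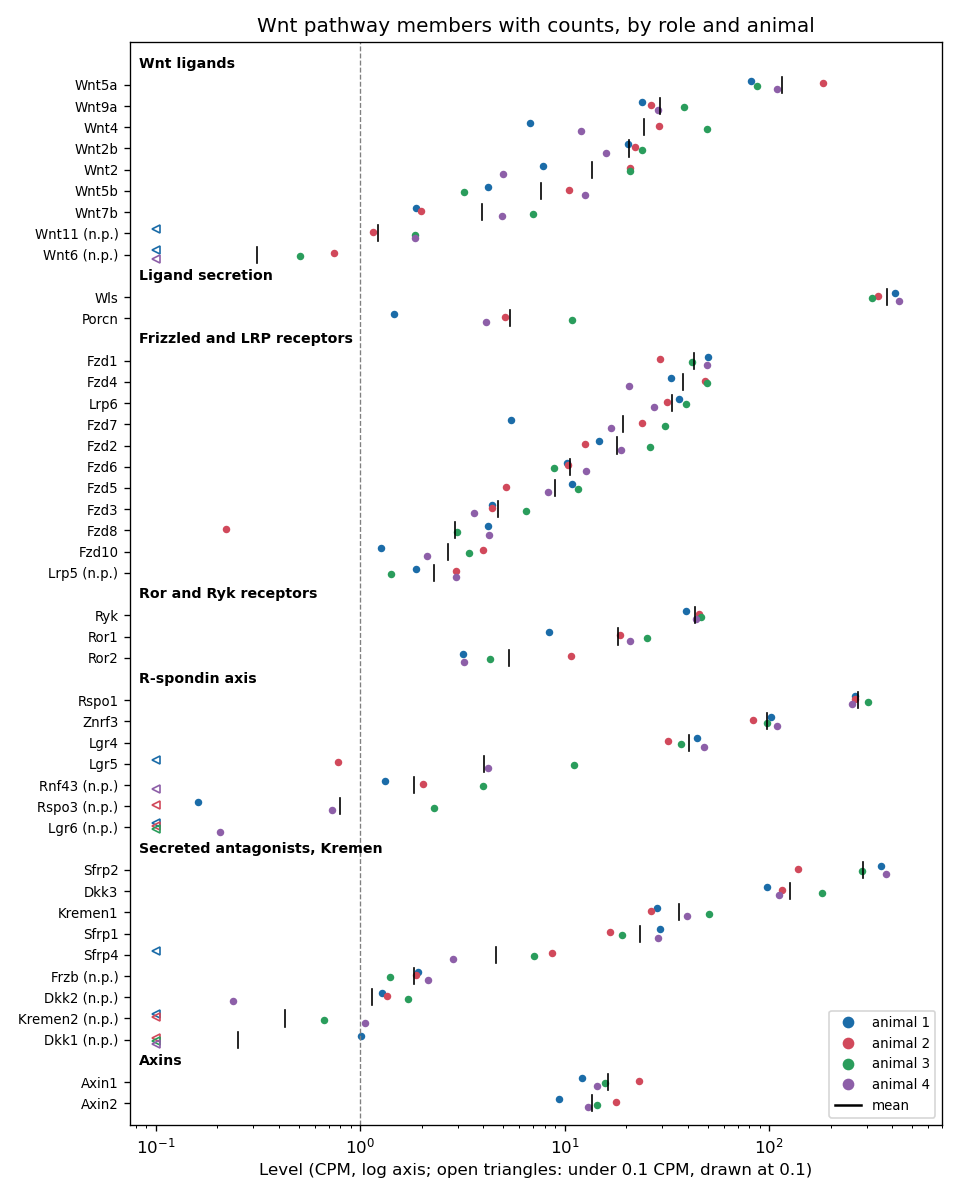
Level of each member with counts in each of the 4 animals (coloured points) and the mean (black bar), in CPM on a log axis, grouped by role. The dashed line is 1 CPM, and n.p. marks genes that did not pass the test. The axis is not corrected for length. The points of Rspo1 and Ryk lie close together (254 to 304 CPM and 39.0 to 46.5 CPM), while those of Lgr5, Sfrp4 and Fzd8 spread widely.

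Among the ligands, Wnt5a, the best known non-canonical Wnt, stood highest per kb (order given further on). It had 81.7, 183, 87.3 and 109 CPM in animals 1 to 4, a mean of 115 ± 46.9 CPM (SD, n = 4), and animal 2 stood above the others. The gene lies on chromosome 14 at 28504750 to 28527448 (GRCm38). Wnt9a, which takes part in joint and haematopoietic development, had 23.8, 26.5, 38.4 and 28.4 CPM. Wnt2b, known from mesothelium-derived mesenchyme and organ buds, had 20.5, 22.0, 24.0 and 16.0 CPM, and its highest and lowest animals differed 1.5-fold.

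Other ligands that passed varied far more. Wnt4, needed in kidney and female reproductive tract development, had 6.76, 28.9, 49.6 and 12.0 CPM, a 7.33-fold range. Wnt2, a signal of lung and endothelial development, had 7.82, 20.9, 20.9 and 5.00 CPM, a 4.19-fold range. For both genes animals 2 and 3 stood above animals 1 and 4, as did the summed fibroblast markers. The summed mesothelial markers had the same split (14354, 15540, 14425 and 13671 CPM), with animal 3 only slightly above animal 1. Markers of both lists shared that order, among them the collagen gene Col1a1 (810, 1304, 1400 and 646 CPM) and the mesothelial keratin gene Krt19 (1749, 3120, 3091 and 1239 CPM). Others of both lists did not, among them the fibroblast marker Lum (87.4, 131, 37.3 and 48.5 CPM) and the mesothelial marker Upk3b (4448, 3920, 3990 and 4184 CPM). The part of either list in the Wnt4 and Wnt2 values was not tested. Wnt5b had 4.23, 10.47, 3.21 and 12.6 CPM and Wnt7b 1.88, 1.98, 6.98 and 4.96 CPM, with other animals on top. Wnt11 and Wnt6 had 21.1 and 5.58 estimated counts in all 4 libraries and did not pass. The other 10 ligands, Wnt1, Wnt3, Wnt3a, Wnt7a, Wnt8a, Wnt8b, Wnt9b, Wnt10a, Wnt10b and Wnt16, were at 0 in every animal. The Wnt1, Wnt3a and Wnt10b proteins among them are classical activators of beta-catenin signalling.

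Per kb of transcript the order was Wnt5a at 16.5, Wnt9a at 8.82, Wnt2b at 6.21, Wnt2 at 6.06, Wnt4 at 5.80, Wnt5b at 3.22 and Wnt7b at 1.16 CPM per kb. Within animals Wnt5a exceeded Wnt9a by 0.85 ± 0.66 on the log2 scale (SD, n = 4) and in 4 of 4, or by 2.46 with the mean length of the annotated transcripts. Wnt9a exceeded Wnt2b by 0.50 ± 0.30 in 4 of 4, but with mean transcript length that difference was -0.02. Wnt2b, Wnt2, Wnt4, Wnt5b and Wnt7b, each set against the next in this order, did not differ beyond the spread between animals. Here and below, beyond the spread means that the mean difference exceeded its SD and all 4 animals had the same direction. That rule is a description and not a test. Of the ligands' summed CPM per kb, Wnt5a took 34.4 ± 8.58%, between 22.0% in animal 3 and 41.8% in animal 2. The size of that share rests on length: with mean transcript length it was 58.2 ± 9.85%, since the longest of the 6 annotated Wnt5a transcripts has 7010 bases and their mean is 2293 bases. Wnt4 took 4.98% of the sum in animal 1 and 20.9% in animal 3.

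**Figure D2:**
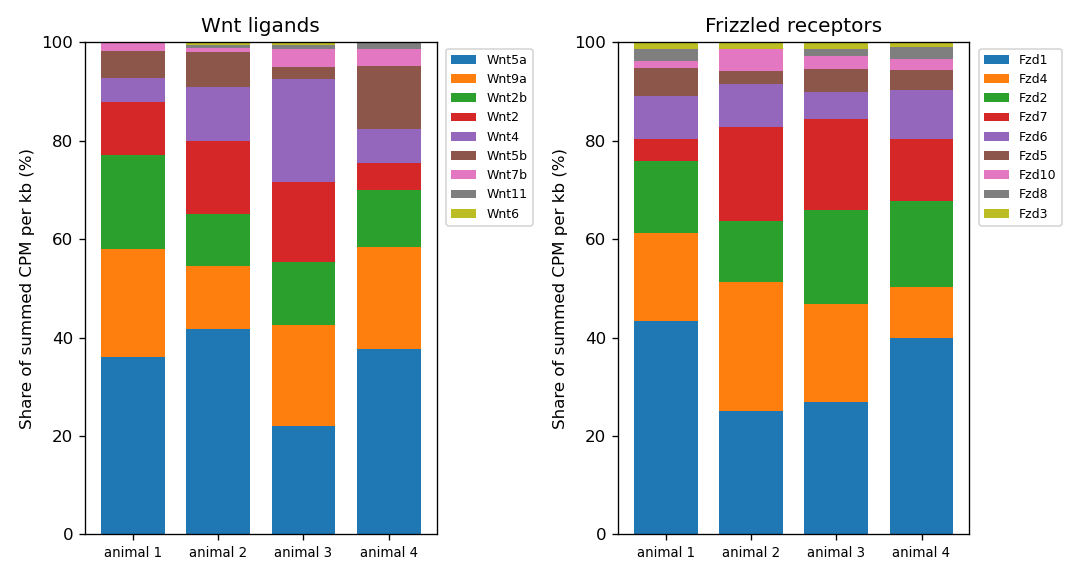
Share of each gene in the summed CPM per kb of its family (longest transcript), for Wnt ligands on the left and Frizzled receptors on the right, with a bar for each animal. Wnt5a holds the largest ligand share in all 4 animals, with 22.0% to 41.8%, and Fzd1 ranges from 25.1% to 43.4% of the Frizzled sum.

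Several Wnt genes lie in pairs of close neighbours, and few of these genes had counts. Wnt1 and Wnt10b on chromosome 15, with 11.7 kb between them, and Wnt3 and Wnt9b on chromosome 11, with 24.3 kb, had no counts, and in the pair Wnt10a and Wnt6 on chromosome 1 only Wnt6 had any. Wnt9a stood apart at 29.3 ± 6.39 CPM, beside Wnt3a at 0 with 16.2 kb between them on chromosome 11. The pair is transcribed in opposite directions from neighbouring ends. The 250 bases before each RefSeq start are shown because the windows are alike in composition while the levels are not, with Wnt9a on the plus strand at chr11:59306680-59306929 and Wnt3a on the minus strand at chr11:59290752-59291001 (RefSeq, GRCm38.p6). Capitals mark GGGCGG on either strand, the GC box that Sp and Klf factors can bind. Matches may overlap.
Wnt9a: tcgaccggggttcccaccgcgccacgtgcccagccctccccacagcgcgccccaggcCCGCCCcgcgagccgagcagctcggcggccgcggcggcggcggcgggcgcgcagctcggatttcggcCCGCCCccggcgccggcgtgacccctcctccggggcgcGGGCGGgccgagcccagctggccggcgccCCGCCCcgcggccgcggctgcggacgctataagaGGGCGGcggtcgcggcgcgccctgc
Wnt3a: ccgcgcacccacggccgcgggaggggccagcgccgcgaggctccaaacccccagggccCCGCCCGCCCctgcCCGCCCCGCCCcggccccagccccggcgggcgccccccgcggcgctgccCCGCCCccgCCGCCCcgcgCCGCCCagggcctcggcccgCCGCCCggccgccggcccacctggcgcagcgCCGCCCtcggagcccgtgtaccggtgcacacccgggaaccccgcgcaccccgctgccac

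The Wnt9a window held 5 GC boxes, 48 CG dinucleotides and 84.4% G and C, and the Wnt3a window 9 GC boxes, 41 CG dinucleotides and 87.6% G and C. RefSeq start windows were at hand for 38 of the 60 members. Some genes had several windows, and a gene counted if any of its windows held the word. GGGCGG was found in 29 of the 38 (76.3%), in 35.4% of the 27025 genes with a window, in 65.7% of protein-coding genes that passed and in 26.7% of those that did not. Among members it was found in 77.8% of the 18 that passed and in 75% of the 20 that did not. CTTTGAT, a core of the Tcf binding site, was found on either strand in 2 of the 38 members and in 3.72% of all genes with a window. The 2 members were Wnt5b and Wnt11, which both had several windows. The words TGANTCA (AP-1) and GCGTGGG (Egr and Wt1 type) were found in 5.26% and 21.1% of the members and in 7.82% and 4.94% of all genes with a window. GCGTGGG was found in 2 of the 18 members that passed (11.1%) and in 6 of the 20 that did not (30%). Over protein-coding genes GCGTGGG was found in 8.72% of those that passed and 4.22% of those that did not, and TGANTCA in 5.29% and 9.36%. Members that passed and members that did not both had a median of 66% G and C, against 52.4% over all genes with a window. The medians were 60% for protein-coding genes that passed and 49.6% for those that did not. A match is a run of letters and not a shown binding site.

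The carrier Wls was high and steady. It had 413, 341, 319.7 and 431 CPM, with a mean of 376 ± 54.0 CPM, and the highest animal exceeded the lowest 1.35-fold. That mean, not corrected for length, ranked at percentile 98.3 of protein-coding genes. Wls lies on chromosome 3 at 159839672 to 159938664. The acyltransferase Porcn had 1.46, 5.08, 10.9 and 4.12 CPM, a 7.42-fold range with animal 1 lowest and animal 3 highest. Wls exceeded Porcn per kb by 6.01 ± 1.36 on the log2 scale, in 4 of 4 animals.

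Of the 10 Frizzled receptors 9 passed and Fzd9 had no count. Fzd1 had 49.9, 29.1, 42.1 and 49.4 CPM and Fzd4, which also binds the non-Wnt ligand norrin, 33.1, 48.6, 49.9 and 20.5 CPM. Their patterns ran in opposite directions, with animals 2 and 3 lowest for Fzd1 and highest for Fzd4. Fzd7 had 5.45, 24.0, 31.1 and 16.8 CPM, a 5.71-fold range, Fzd2 14.7, 12.6, 26.1 and 18.9 CPM, and Fzd6 10.3, 10.4, 8.90 and 12.8 CPM. Fzd6, whose product is linked to planar polarity, was the steadiest of these with a 1.44-fold range. Fzd5 and Fzd3 had means of 8.99 ± 2.93 and 4.73 ± 1.22 CPM.

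The lowest Frizzled calls were the least firm. Fzd8 had 4.21, 0.221, 2.97 and 4.27 CPM, with animal 2 apart from the others. Its adjusted p was 0.0137 by edgeR. Leaving out animal 1 gave 0.106 and leaving out animal 4 gave 0.134 by edgeR, and limma with voom weights gave 0.465 on all animals, so that the call ended in each case. Fzd10 had 2.68 ± 1.22 CPM and passed at adjusted p = 0.0163 by edgeR, but not without animal 2 or 3, at 0.148 and 0.0749. Fzd5 shares 17.2% of its 31-base words with other annotated transcripts, nearly all with Gm38058, which had 0.0590 CPM.

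Per kb, Fzd1 led at 10.2 CPM per kb, followed by Fzd4 at 5.66, Fzd2 at 4.94, Fzd7 at 4.27, Fzd6 at 2.45, Fzd5 at 1.30, Fzd10 at 0.826, Fzd8 at 0.488 and Fzd3 at 0.372 CPM per kb. Among neighbours in the order of Frizzled and Lrp genes, only Fzd6 and Fzd5 differed beyond the spread with the longest transcript, by 0.97 ± 0.64 on the log2 scale and in 4 of 4 animals. Fzd1 exceeded Fzd4 by 0.90 ± 0.89 in 3 of 4. With mean transcript length Fzd7 stood below Lrp6 in 4 of 4 animals, with a difference of -1.66, and Lrp6 exceeded Fzd6 by 1.14 ± 0.44 in 4 of 4, both beyond the spread. No single receptor held most of the Frizzled sum. With the longest transcript Fzd1 took 33.8 ± 9.16%, Fzd4 18.6 ± 6.51%, Fzd2 15.9 ± 2.98% and Fzd7 13.6 ± 6.84%. With mean transcript length Fzd1 and Fzd4 still led, at 30.1 ± 7.78% and 16.65 ± 5.92%. Fzd6 then took 15.4 ± 3.36%, above Fzd2 at 14.2 ± 2.80% and Fzd7 at 12.2 ± 6.24%.

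The co-receptor Lrp6 had 36.3, 31.7, 39.3 and 27.3 CPM. Lrp5, its close relative, had 1.87, 2.94, 1.41 and 2.94 CPM and did not pass (adjusted p = 0.0643 by edgeR). It passed without animal 3 (adjusted p = 0.0406 by edgeR), when genes under 10 counts were left out first (0.0155 by edgeR) and by limma with voom weights (0.0170). Lrp6 was the higher of the pair in every animal and stood at 3.59 ± 0.563 CPM per kb, against 0.257 ± 0.0869 CPM per kb for Lrp5.

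All 3 receptors outside the Frizzled family passed. Ryk, a Wnt receptor with an inactive kinase domain, had 39.0, 45.1, 46.5 and 43.7 CPM, the smallest coefficient of variation of the 43 members with counts at 7.52%. Ror1, a receptor tyrosine kinase-like receptor for Wnt5a, had 8.38, 18.7, 25.1 and 20.8 CPM. Ror2, the better known of its Wnt5a receptors, had 3.19, 10.8, 4.30 and 3.20 CPM. Animal 2, which was highest for Ror2, was also highest for Wnt5a. Per kb Ryk exceeded Ror1 by 2.27 ± 0.59 on the log2 scale and Ror1 exceeded Ror2 by 1.33 ± 0.92, each in 4 of 4 animals. With mean transcript length the second difference was 0.75, in 3 of 4.

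The R-spondin axis was carried by single genes. Rspo1 had 262, 262, 304 and 254 CPM, with a mean of 271 ± 22.6 CPM and a 1.20-fold range over animals. It lies on chromosome 4 at 124986430 to 125009099. Rspo3 had 14.1 estimated counts in all, at 0.161, 0, 2.29 and 0.727 CPM, and did not pass, and Rspo2 and Rspo4 had no count. Of the summed R-spondin level per kb, Rspo1 took 99.6% to 100% in the 4 animals. Per kb it stood at 148 ± 12.3 CPM per kb, beside Sfrp2 at 143 ± 52.7 CPM per kb, and the difference of this pair was within the spread (0.14 ± 0.67 on the log2 scale, Rspo1 higher in 2 of 4), with -0.18 for mean transcript length. Rspo1 exceeded Wls by 0.49 ± 0.31 on that scale, in 4 of 4 animals. Of the 31-base words of Rspo1, 0.526% occur in other genes.

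The sequence before the Rspo1 start is shown because this gene carries nearly all the R-spondin transcript, on the plus strand at chr4:124986180-124986429 (RefSeq, GRCm38.p6). Neither GGGCGG nor CTTTGAT occurs in it, so no base is in capitals.
Rspo1: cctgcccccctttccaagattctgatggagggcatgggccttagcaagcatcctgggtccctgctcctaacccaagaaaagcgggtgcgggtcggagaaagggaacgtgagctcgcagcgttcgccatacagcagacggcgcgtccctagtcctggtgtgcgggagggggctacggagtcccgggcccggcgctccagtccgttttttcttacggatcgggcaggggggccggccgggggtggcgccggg
The window held 66.8% G and C and 22 CG dinucleotides. The absence of these words says only that their letters are not in these 250 bases.

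The R-spondin receptors and their target ligases also came down to a main gene each. Lgr4 had 44.4, 32.1, 37.0 and 48.2 CPM and took 76.0% to 100% of the summed Lgr level per kb. Lgr5, the stem cell marker of the intestine, had 0, 0.777, 11.1 and 4.23 CPM. Its call (adjusted p = 0.00326 by edgeR) rested on animal 3: without it the mean was 1.67 CPM at adjusted p = 0.830, and limma with voom weights gave 1. Intestinal markers had sums of 21.1, 37.9, 20.1 and 15.2 CPM in animals 1 to 4, with Vil1, Alpi, Cdx1, Cdx2 and Olfm4 at 0. Lgals4 made up most of these sums, with 20.0, 28.8, 17.6 and 13.8 CPM. The part of these markers in the Lgr5 values was not tested. Lgr6 had 0.848 estimated counts. Znrf3 had 102, 83.7, 97.3 and 109 CPM, a 1.30-fold range, while Rnf43, the other ligase of this type, had 1.32, 2.04, 3.97 and 0 CPM and did not pass. Per kb Rspo1 exceeded Znrf3 by 3.25 ± 0.21 on the log2 scale, Znrf3 exceeded Lgr4 by 0.97 ± 0.12 and Rspo1 exceeded Lgr4 by 4.22 ± 0.33, each in 4 of 4 animals.

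Sfrp2 was the leading antagonist, with 354, 139, 283 and 371 CPM and a mean of 287 ± 106 CPM. Animal 2 was the lowest. Fibroblast markers went both ways: their sum, made up mainly of Col3a1, Col1a2 and Col1a1, was highest in animal 2, while Col14a1, with 301, 149, 286 and 388 CPM, and Thy1, with 31.2, 10.48, 30.4 and 33.8 CPM, were lowest there as Sfrp2 was. The part of these markers in the Sfrp2 values was not tested. Of the 31-base words of Sfrp2, 13.7% also occur in the annotated gene Gm26771, which had 23.6, 6.77, 0 and 22.4 CPM, and the part of that sharing in the Sfrp2 values was not tested. Sfrp1 had 29.2, 16.7, 19.1 and 28.7 CPM, with the same animals high as for Sfrp2. Sfrp4 had 0, 8.67, 7.05 and 2.84 CPM, with the pattern turned round, and its call (adjusted p = 0.000293 by edgeR) was absent by limma with voom weights (0.878). Frzb, also named Sfrp3, had 1.83 ± 0.313 CPM and did not pass by edgeR (adjusted p = 0.290), though it passed by limma with voom weights at 0.00623. Sfrp5 and Wif1, other ligand-binding antagonists, had no count.

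Dkk3, a Dickkopf-family protein that unlike Dkk1 is not known as a strong Lrp antagonist, had 97.1, 115, 180.2 and 111 CPM, with animal 3 highest. Dkk1 had 4.63 estimated counts, all in animal 1, Dkk2 had 1.15 ± 0.636 CPM without passing, and Dkk4 had no count. Kremen1, which binds Dkk1 together with Lrp6, had 28.2, 26.5, 50.6 and 39.7 CPM, and its relative Kremen2 had 7.33 estimated counts. Notum, the secreted enzyme that removes the lipid from Wnt proteins, had no count, and 33% of its words occur in other transcripts, chiefly Notumos, which was also at 0. Per kb Sfrp2 exceeded Dkk3 by 1.88 ± 0.79 on the log2 scale and Dkk3 exceeded Kremen1 by 2.34 ± 0.26, each in 4 of 4 animals. Kremen1 and Sfrp1, at 7.46 and 5.35 CPM per kb, did not differ beyond their spread (0.47 ± 0.60), but did with mean transcript length (0.74, in 4 of 4).

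Both Axin genes passed. Axin1, the constant scaffold of the destruction complex, had 12.2, 23.0, 15.8 and 14.4 CPM. Axin2, the scaffold that beta-catenin itself induces and which is widely used as a readout of canonical signalling, had 9.41, 17.8, 14.3 and 12.9 CPM. The animals had the same order in both genes, with animal 2 highest and animal 1 lowest. Per kb Axin1 exceeded Axin2 by 0.43 ± 0.13 on the log2 scale in 4 of 4 animals, but with mean transcript length the difference was -0.01. The bases before the Axin2 start are shown because this gene is a widely used readout of the pathway, on the plus strand at chr11:108920099-108920348 (RefSeq, GRCm38.p6), with GGGCGG in capitals.
Axin2: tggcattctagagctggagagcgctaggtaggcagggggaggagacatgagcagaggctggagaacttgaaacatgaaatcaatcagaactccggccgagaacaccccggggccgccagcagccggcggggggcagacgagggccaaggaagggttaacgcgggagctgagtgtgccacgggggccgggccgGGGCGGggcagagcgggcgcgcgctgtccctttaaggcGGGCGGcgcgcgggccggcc
This window held 2 GC boxes and no CTTTGAT, which says nothing of Tcf factors elsewhere at the gene.

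The summed level of all members was 1728, 1621, 1892 and 1860.4 CPM in animals 1 to 4, which weights the few genes of high CPM. By that sum animal 2 was lowest, whereas counted by gene animal 1 was most often the lowest. Of the 33 members that passed, 18 (54.5%) were highest in animal 3, against 32.9% of the 11943 genes that passed in the whole table. With TMM scaling these were 13 members (39.4%), against 25.3% of all. Animal 1 was the lowest for 15 members (45.5%; 13 with TMM), against 30.0% of all genes that passed (25.9% with TMM). The median deviation of the members from their own means was 0.34 on the log2 scale in animal 3, against 0.09 for all genes that passed, and 0.26 against 0.01 with TMM. It was -0.27 in animal 1, against -0.05 for all genes that passed, and -0.22 against 0.01 with TMM. Members are not independent replicates, and with 4 animals of 1 group no test of this pattern was made.

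**Figure D3:**
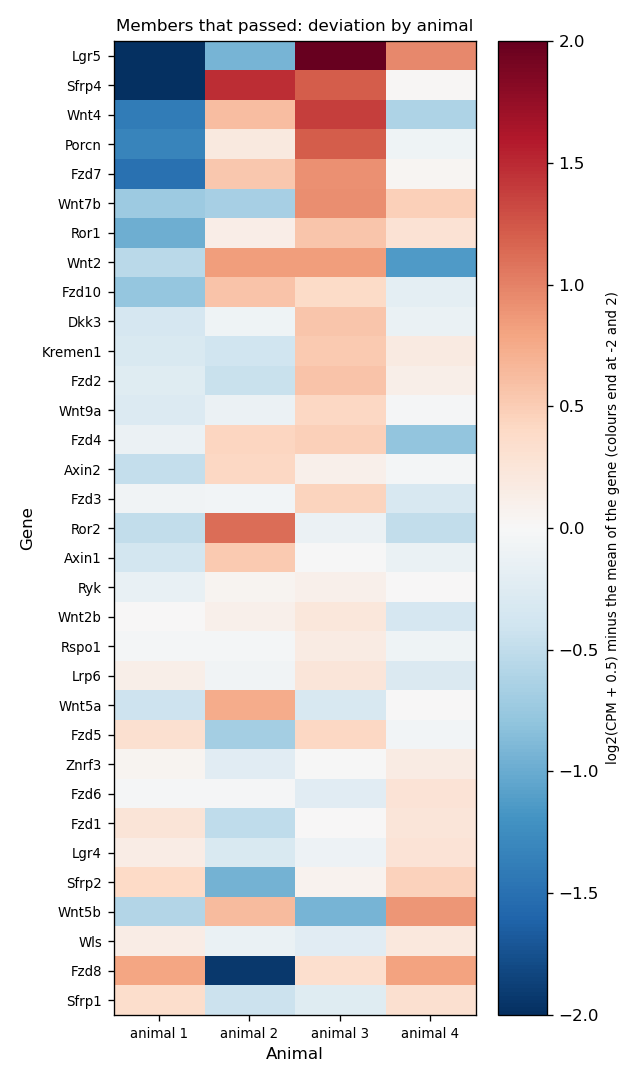
Deviation of each member that passed from its own mean, as log2(CPM + 0.5), in the 4 animals, with genes ordered by the difference between animals 3 and 1. Lgr5, Sfrp4, Wnt4, Porcn and Fzd7 are low in animal 1 and high in animal 3, whereas Sfrp1, Fzd8 and Wls are not. The members' median is 0.34 in animal 3 and -0.27 in animal 1.

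Members of like level differed in their steadiness. The median SD of log2(CPM + 0.5) over animals was 0.45 for the 33 members and 0.39 for all genes that passed, and 20 of the 33 lay above the running median of genes at the same level. Rspo1 had an SD of 0.12 where genes of its level had a median of 0.20, Ryk 0.11 beside 0.30, Znrf3 0.16 beside 0.24 and Wls 0.21 beside 0.19. Those genes thus varied about as little as others of their level, or less. Sfrp2 had 0.65 beside 0.21, Wnt5a 0.53 beside 0.23, Wnt4 1.24 beside 0.38, Fzd7 1.06 beside 0.43 and Wnt2 0.99 beside 0.50, and stood above genes of like abundance. At the low end Lgr5 and Sfrp4 had SDs of 2.01 and 1.92, where counting error also adds.

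**Figure D4:**
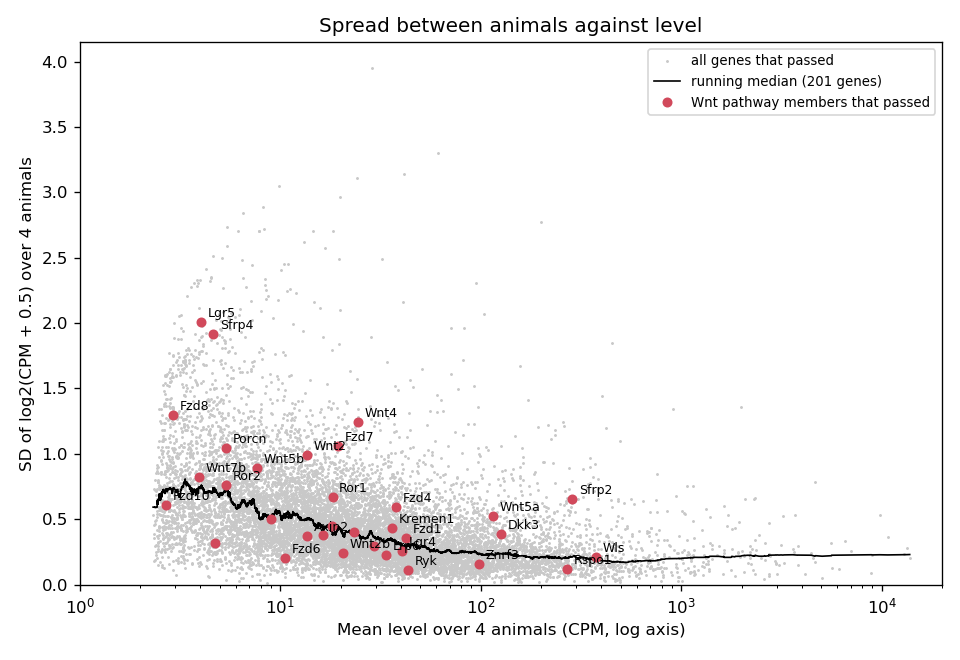
SD of log2(CPM + 0.5) over the 4 animals against mean level (CPM, log axis) for all genes that passed (grey) and for the members that passed (red), with the running median of genes of like level as a line. Rspo1, Ryk and Znrf3 lie below the line and Sfrp2, Wnt5a, Wnt4 and Fzd7 above it.

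Genes that carry the signal inside the cell were mostly present. Of 19 genes of signal transduction 18 passed. Those with the largest CPM were the kinase gene Gsk3b at 354 ± 34.7, Ctnnb1 (beta-catenin) at 143 ± 65.2 and the kinase gene Csnk1a1 at 118 ± 20.1 CPM, which per kb were 42.6, 39.4 and 29.0 CPM per kb. Only Apc2 did not pass. Ctnnb1 had 98.6, 154, 231 and 88.4 CPM, with animals 2 and 3 on top. Of 14 nuclear factors 12 passed. Tcf7l2, a Tcf factor, had 273, 290.1, 281 and 337 CPM and stood at 79.5 CPM per kb, beside Tcf7l1, mostly a repressor, at 20.7 ± 8.54 CPM and 6.80 CPM per kb. Tcf7 and Lef1, the remaining Tcf genes, had 8.71 and 2.80 estimated counts and did not pass. The co-activator gene Bcl9l and the chromatin factor gene Chd8 had 43.8 ± 11.5 and 34.3 ± 14.4 CPM.

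Feedback and target genes were mixed. Of 15 such genes 9 passed, with Myc at 40.5 ± 8.22, Cd44 at 27.8 ± 12.1 and the feedback inhibitor gene Nkd1 at 20.6 ± 7.74 CPM having the largest CPM. Myc and Cd44 respond to many other signals too. Sp5, a direct target gene, had 9.64 estimated counts, Ascl2 0.849 and Mmp7 none, and Nkd2, Apcdd1 and Dact2 did not pass. Nkd1 had 11.2, 27.3, 26.6 and 17.4 CPM, with animals 2 and 3 highest and animal 1 lowest, as in Axin2. Of 15 planar polarity genes 14 passed, with Prickle1 at 27.9 ± 0.939, Vangl1 at 24.4 ± 11.02 and Fuz at 23.5 ± 4.49 CPM having the largest CPM and Celsr3 at 0. Vangl2 had 0.277, 0.863, 10.6 and 8.06 CPM.

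Among 22 other extracellular modulators 12 passed and Sost, Ndp, Draxin and Dkkl1 had no count. Gpc3, a glypican that binds Wnt and Hedgehog proteins at the cell surface, had 2005, 1119, 1477 and 2204 CPM. Per kb it stood at 768 CPM per kb, beside 148 CPM per kb for Rspo1 and 143 CPM per kb for Sfrp2. Sulf1, a sulfatase that edits heparan sulfate, had 350 ± 114 CPM, and the IGF-binding protein gene Igfbp4 had 284 ± 117 CPM. Cpz, a carboxypeptidase with a Frizzled-like domain, had 197 ± 52.6 CPM. Of these lists, which were set beside 24.7% of all genes and 50.9% of protein-coding genes passing, no test was made. Medians of the mean levels were 21.6 CPM in the transduction list, 10.1 CPM in the nuclear list, 2.83 CPM in the target list, 6.83 CPM in the planar polarity list and 4.76 CPM in the extracellular list, beside 2.88 CPM for protein-coding genes.

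**Figure D5:**
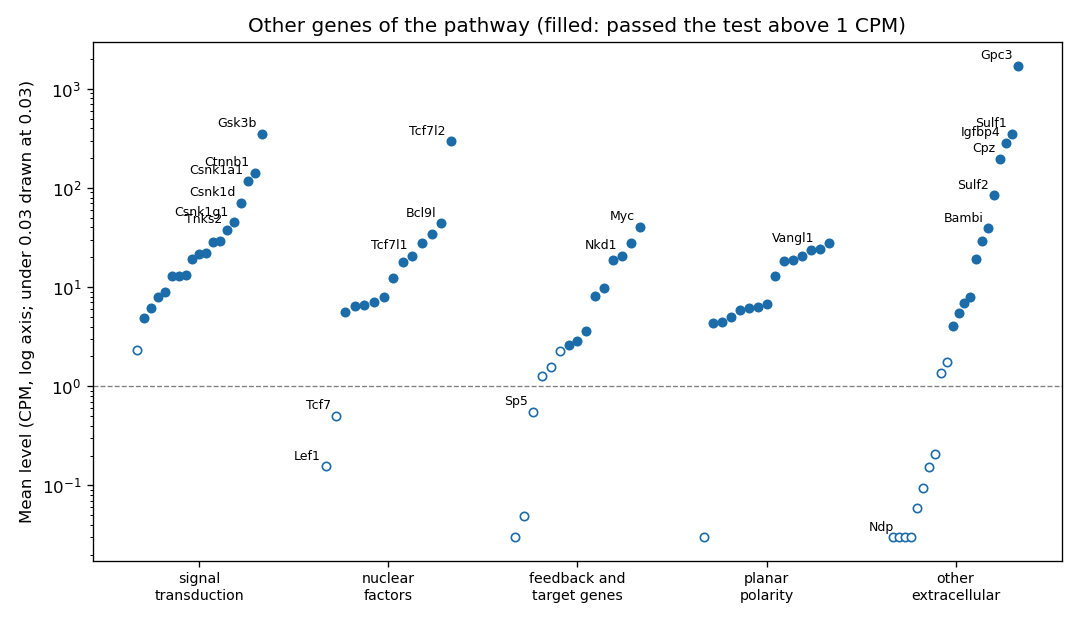
Mean level over 4 animals (CPM, log axis) of pathway genes that are not members, in 5 lists. Filled points passed the test above 1 CPM and open points did not. Levels are not corrected for length. Gpc3 is at 1701 CPM, and Tcf7l2, at 79.5 CPM per kb, lies above Tcf7 and Lef1, at 0.203 and 0.0425 CPM per kb, and 18 of 19 transduction genes are filled.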

How the data were processed

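The deposited table holds estimated counts per gene in 4 columns, matched to the animals through the sample descriptions. Per the submitters' processing notes, kallisto 0.43.1, edgeR 3.24.3, limma 3.38.3 and build GRCm38.p5 were used, with no role given, and how transcript values were combined per gene was not given in the sources used here. The values were taken as estimated counts as deposited by the authors: 99.75% to 99.95% of nonzero values were not whole (tolerance 0.000001). Of low values in genes with a single annotated transcript, 66.57% to 70.46% lay near a whole number. Fzd8 and Fzd10, each with 1 annotated transcript and no shared words of 31 bases, still had values that were not whole. Fzd8 had 19.22, 0.966, 13.54 and 17.45 and Fzd10 5.75, 17.33, 15.42 and 8.70 estimated counts in animals 1 to 4. Nearness to a whole number in other genes thus does not show that the values are unscaled. Whether they were rescaled before deposit was not tested. Nothing says whether counting used strand, so reads of overlapping genes cannot be told apart.

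CPM are a column's values over its sum. For the test, counts were rounded and fitted with edgeR 4.0.16 (R 4.3.3), intercept only, legacy quasi-likelihood, with column sums as library sizes. The F statistic came from the fitted deviance and that at 1 CPM, since the packaged function needs a second coefficient. The deviance step was checked against that function on simulated data, in a design that had a second coefficient. That check did not cover the null fixed at 1 CPM or the one-sided p, which came from the signed root of F. For genes fitted with less variance than counting error, a one-sided p from counting error alone replaced it where larger. That step was not covered by the check either. Alternatives were TMM, DESeq2 1.42.0 size factors and Wald test, limma 3.58.1 with voom weights, a filter at 10 counts and leaving out each animal. Lengths and coordinates are GENCODE M21 (GRCm38), and words of 31 bases were compared on both strands.

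The members and lists were chosen with earlier results of these data known. Members at 10 CPM or more, and those that passed with a 4-fold range, are given per animal. The common biological coefficient of variation by edgeR was 42.3%. The p-values ask whether a level lay above 1 CPM, with the spread between these animals estimated in part from all genes. Libraries held 4090224 to 4569578 estimated counts, which limits low levels.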

Additional observations from a re-analysis of the deposited data

Results flagged for a closer look

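Of 38 members with a mean of at least 1 CPM, 2 had an animal whose gap to the nearest other exceeded Dixon's 95% critical value for 4 samples, and chance marks about 1 in 20 groups. Ror2 reached 10.8 CPM in animal 2, beside 3.19 to 4.30 CPM in the other animals. Rspo1 reached 304 CPM in animal 3, beside 254 to 262 CPM in the others, a small difference in a gene of little spread.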

How the results depend on the processing

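Under all scaling, tool, filter and leave-one-out alternatives the count of members above 1 CPM (33) lay between 31 and 34, the count over all genes (11943) between 11494 and 12196, and each count by role or pathway list within 1.5 times its value. With TMM or DESeq2 size factors all 33 calls remained, with limma and voom weights 30, and with DESeq2's Wald test 31, which lost Fzd8 (adjusted p = 0.05) and Fzd10 (0.0528). Leaving out 1 animal kept 31 or 32. Mean levels near 1 CPM crossed it: with 1 animal left out Dkk2 ranged from 0.956 CPM (without animal 3) to 1.45 CPM, and Rspo3 from 0.296 to 1.06 CPM, with 1.00 CPM without animal 1 and 1.06 CPM without animal 2. Neither passed in any of these. With mean transcript length, the log2 differences of Wnt9a over Wnt2b and of Axin1 over Axin2 changed sign, to -0.0222 and -0.0123. Which transcripts the authors' index held is not given, so levels per kb depend on that choice. No paired analysis was possible because the series holds 1 group. Near 1 CPM a library holds 4 to 5 estimated counts of a gene, so differences between animals at that level were not detectable at this depth.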
